A study of Rattus norvegicus with 8 samples.

Results

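The 33 genes described here encode scaffold proteins that lie under the receptors of the postsynaptic membrane and adhesion molecules that join the presynaptic and postsynaptic membranes. They were taken from a named list by matching the gene name of every probe on the array, and they are 33 of 9440 genes and unnamed probes whose signal was measured well enough to be tested. Of the 33, 29 carry the listed symbol in the scanner files; the other 4, Dlg1 to Dlg4, appear there as Dlgh1 to Dlgh4 and were matched through their accessions. All 33 passed the filter on dim probes, through 40 probes in total, and 32 of the 33 probes used for the comparison were well above background on all 8 arrays. The exception was the probe for Nlgn2, which was above background on 7.

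The RNA came from whole hippocampi of rats at 2 months of age. Pups in the PNFLX group had been dosed with 10 mg/kg of fluoxetine, an antidepressant that blocks the serotonin transporter, and pups in the control group with the vehicle, 5% sucrose. By the protocol, dosing began on postnatal day 2 and ended on day 21. Each group has 4 samples on 1 single-colour array each. The question was which hippocampal transcripts differ in adult animals after this early exposure. Strain and sex were not given in the labels used here, and the labels do not say whether each sample is a separate animal, so the p-values measure the spread between these samples.

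In excitatory synapses a layered protein network, the postsynaptic density, holds glutamate receptors opposite the release site. Membrane-associated guanylate kinases (the Dlg family, with PSD-95 as Dlg4) bind receptors through PDZ domains, SAPAP proteins (Dlgap) link them to Shank, and Homer joins Shank to metabotropic glutamate receptors. Neuroligins on the postsynaptic side bind neurexins on the presynaptic side across the cleft, and gephyrin plays the scaffold's part at inhibitory synapses. In the hippocampus this network is best known for setting receptor number and spine shape during synaptic plasticity.

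The arrays measure each transcript with designed 60-base probes, and some of the values given later are set out by kind of probe. The probes of the 3 genes whose groups did not overlap are shown first. The Grip1 probe lies on chromosome 7 of rn4, plus strand, at chr7:59322324-59325680, a span of 3357 bases for a 60-base probe, so it is split on the genome, as a probe across an exon junction is. The Dlgap3 probe at chr5:146693929-146693988 (plus strand) and the Homer2 probe at chr1:137907172-137907231 (minus strand) are contiguous. No annotation of exons on rn4 was used here.
Grip1: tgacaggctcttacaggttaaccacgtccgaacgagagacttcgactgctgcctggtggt
Dlgap3: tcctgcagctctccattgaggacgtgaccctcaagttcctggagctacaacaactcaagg
Homer2: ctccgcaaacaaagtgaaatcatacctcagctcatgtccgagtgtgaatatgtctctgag

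Probes of different listed genes were compared with each other base by base, without gaps. No probe was compared with a related transcript, so a low value does not show that a probe is specific. The closest pair of different genes was Dlgap2 and Dlgap4, with 42 of 60 bases identical (70.0%), followed by Dlg2 and Dlg3, with 31 identical in an overlap of 48 bases (64.6%). Capitals mark the identical bases of each pair; how far such probes bind the related transcript was not tested.
Dlgap2: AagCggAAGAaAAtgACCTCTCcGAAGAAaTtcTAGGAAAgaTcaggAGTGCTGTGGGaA
Dlgap4: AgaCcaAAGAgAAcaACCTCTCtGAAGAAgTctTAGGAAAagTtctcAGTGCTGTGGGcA
Dlg2: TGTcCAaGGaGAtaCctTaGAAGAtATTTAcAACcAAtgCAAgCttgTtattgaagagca
Dlg3: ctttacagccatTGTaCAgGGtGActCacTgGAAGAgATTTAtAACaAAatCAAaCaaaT

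Signals are given as log2 of the array's processed signal minus that array's 75th percentile, so that 0 is the level of a probe at the 75th percentile and a difference of 1 is a doubling. Such values compare 1 probe between arrays and do not rank genes by abundance. The 75th percentile of the signal was 654 to 880 in controls and 873 to 941 in PNFLX, so the scaling itself differed between the groups. Of 15207 probes 70.5% to 77.9% were well above background, and correlations between arrays were 0.956 to 0.984. All arrays shared 1 slide; controls filled 1 of its rows and PNFLX samples the next, so the effect of the row and that of the group cannot be told apart. The array of PNFLX 4 stood apart for the listed genes, and control 1 was far below the other arrays on 3 probes, so results that rest on either of them are also given without it. Neuron markers were detected for 14 of 16 genes looked for and markers of the hippocampal fields for 13 of 16.

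No scaffold or adhesion gene passed the test between PNFLX and control. With limma's moderated test and Benjamini-Hochberg adjustment over 9440 genes, 0 of 33 were called at an adjusted p under 0.05, where 48 of all genes (0.508%) were. At an unadjusted p under 0.05 there were 2 of 33 (6.06%), Grip1 and Dlgap4, against 12.8% of all genes tested. The PNFLX and control samples did not overlap for 3 of 33 (9.09%), against 11.0% of all genes. These 3, Grip1, Dlgap3 and Homer2, were lower in PNFLX. Among all genes 6.57% were lower without overlap and 4.46% higher, and 0 of 33 were higher here. The shares of the list thus lay near or below those of all genes, apart from that of lower genes without overlap, which was somewhat above.

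Most of the differences were small and below 0. The log2 difference was below 0 for 20 of 33 and above 0 for 13, which is 60.6% lower, beside 54.5% of all genes tested. The median difference was -0.13, beside -0.04 for all genes, and without PNFLX 4 it was -0.10 beside -0.02. Without PNFLX 4, 21 of 33 were below 0, beside 52.8% of all genes. The count depends on the scaling: without any scaling between arrays 7 of 33 were below 0, the median of all genes stood at 0.26, and 20 of 33 lay below that median. With another background correction (normexp) 21 of 33 were below 0, the median of all genes was -0.39, and 10 of 33 lay below that. In a bulk tissue, fewer cells of a type and less RNA per cell cannot be told apart, and 10 of 14 neuron markers also had a difference below 0, with a median of -0.20 (without PNFLX 4, 11 of 14 and -0.06). The same held for 10 of 13 oligodendrocyte markers (median -0.24), 7 of 11 astrocyte markers (-0.19) and 7 of 11 microglia markers (-0.16). Without PNFLX 4 these medians were -0.12, -0.12 and -0.07. Differences were also below 0 for 6 of 7 choroid plexus and ependyma markers (-0.30) and 8 of 13 hippocampal field markers (-0.06). Without PNFLX 4 these medians were -0.18 and -0.13. Other lists were mostly above 0: 11 of 13 meninges and fibroblast markers (0.27), 4 of 4 blood markers (0.27), 7 of 13 vessel markers (0.18) and 4 of 7 thalamus markers (0.05). Without PNFLX 4 their medians were 0.44, 0.42, 0.20 and -0.16, in that order. Single samples weighed on some lists. By median deviation from each gene's mean over arrays, choroid plexus and ependyma markers were highest in control 4 (1.96). Meninges and fibroblast markers (1.27) and blood markers (0.61) were highest in PNFLX 1. The summed neuron marker level, a log2 value, was 7.44 to 7.84 in controls and 7.26 to 7.59 in PNFLX. The part of these marker lists in the result was not tested.

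The spread between samples set what could be seen. The pooled SD within groups had a median of 0.26 over the 33 genes, from 0.10 for the steadiest to 1.62 for the most variable, beside 0.30 for all genes. The 95% interval of the difference lay within a 2-fold change in either direction for 27 of 33 and within a 1.5-fold change for 12. For the other 6, Dlg3, Shank2, Nlgn1, Nlgn2, Baiap2 and Ppfia3, a 2-fold difference in at least 1 direction lay inside the interval.

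**Figure D1:**
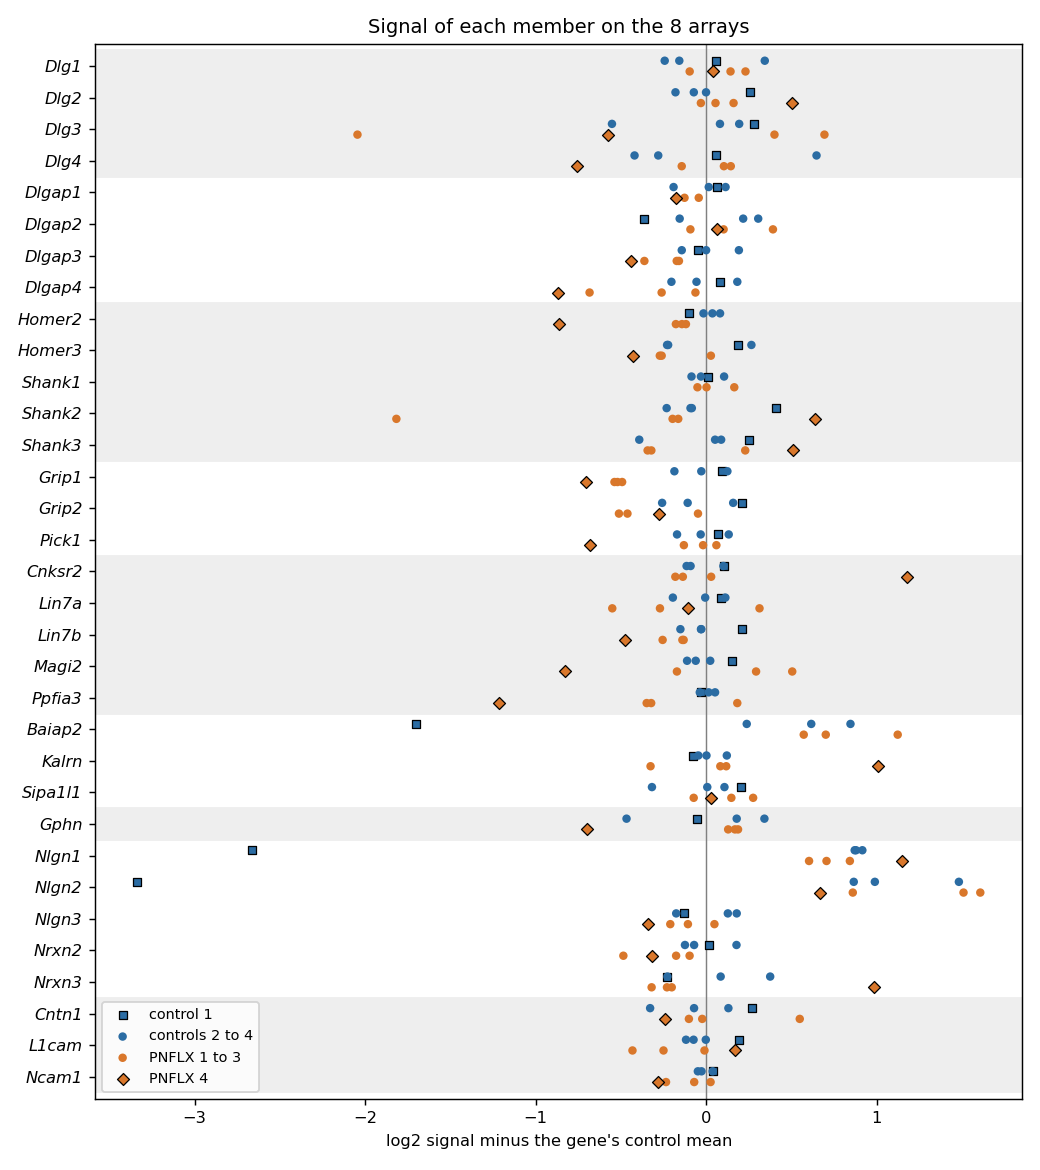
Log2 signal of each of the 33 genes on the 8 arrays, minus that gene's control mean, with controls in blue and PNFLX in orange and bands grouping genes by role. The square marks control 1, which lies far to the left for Baiap2, Nlgn1 and Nlgn2, and the diamond marks PNFLX 4, which is the lowest array for 13 genes and the highest for 7.

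**Figure D2:**
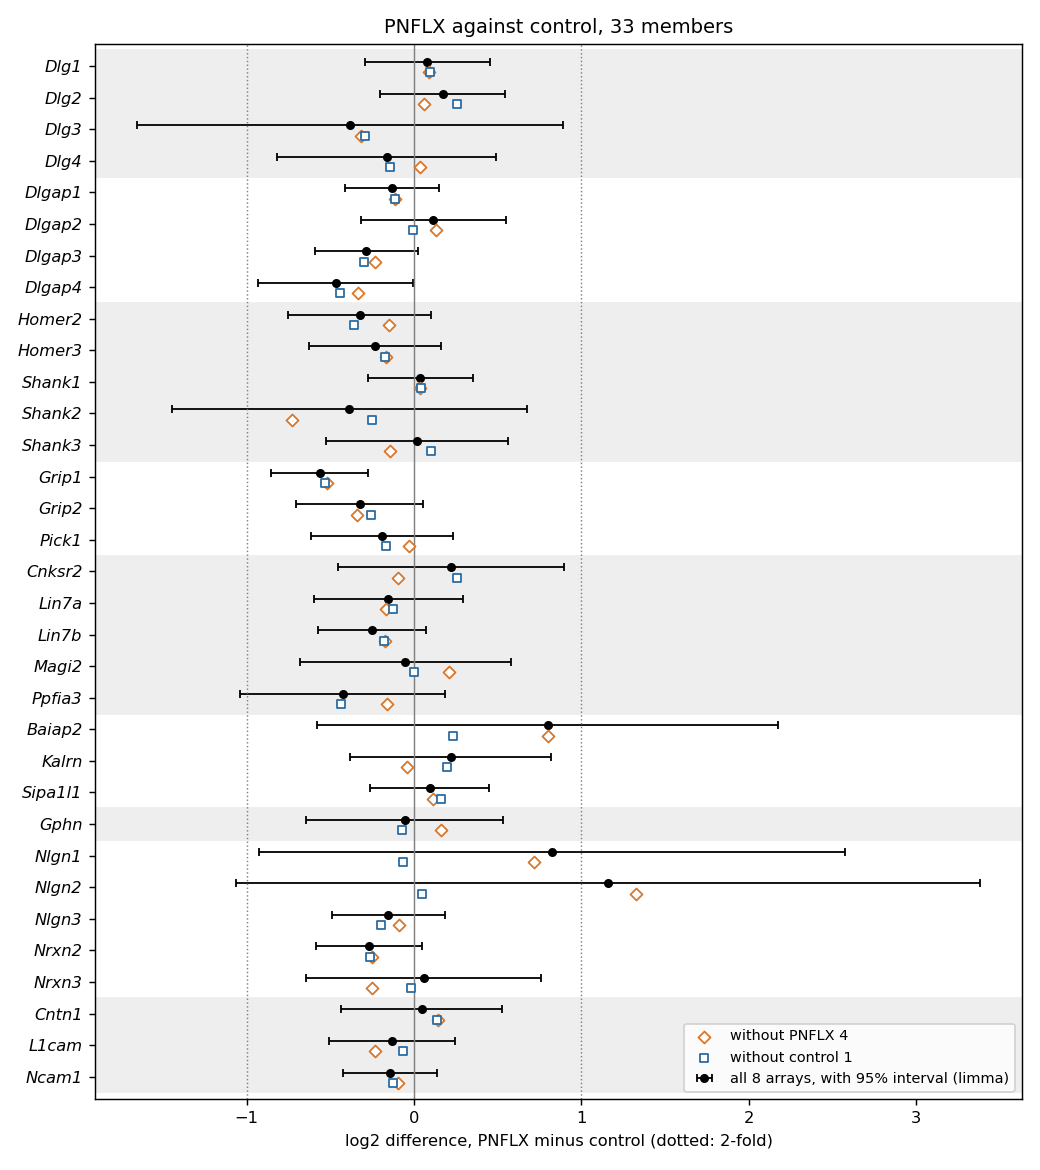
Log2 difference, PNFLX minus control, for each gene with its 95% interval from limma (black), and the same difference without PNFLX 4 (orange) and without control 1 (blue). Dotted lines mark a 2-fold change; only the intervals of Grip1 and Dlgap4 do not reach 0.

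The proteins that carry AMPA receptors through PDZ domains held the clearest difference. Grip1, which binds the tails of AMPA receptor subunits and holds them at synapses and on dendritic vesicles, gave -1.69, -1.66, -1.97 and -1.81 in controls 1 to 4 and -2.32, -2.30, -2.28 and -2.49 in PNFLX 1 to 4. Every PNFLX sample was below every control, and the samples within each group lay close together. The mean was -1.78 ± 0.14 (SD, n = 4) in controls and -2.35 ± 0.095 (SD, n = 4) in PNFLX. That is a log2 difference of -0.56 (SE 0.13, 95% interval -0.85 to -0.27), or 1.48-fold lower, with an unadjusted p of 0.00194 that ranked 172 among the 9440 genes and an adjusted p of 0.107 by limma.

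The Grip1 difference kept its sign in every setting tried and its size varied. It was smallest without scaling between arrays, at -0.27, where the median of all genes was 0.26. Leaving out any 1 array gave -0.63 to -0.52, and leaving out PNFLX 4 gave -0.52 with an adjusted p of 0.145. It was -0.34 (adjusted p 0.388) after the spot row and column medians of each array were subtracted, a setting meant to reduce gradients along an array. When arrays were weighted by their estimated quality it was -0.49 with an adjusted p of 0.0413, the lowest over all settings; the highest was 0.519, with normexp. In the weighted fit 358 genes (3.79%) passed in all, and Grip1 was 1 of 33 listed genes.

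Grip2, the relative of Grip1 with the same kind of PDZ repeats, read -2.74, -3.06, -2.79 and -3.21 in controls and -3.41, -3.46, -3.00 and -3.23 in PNFLX. PNFLX 1, 2 and 4 were below all controls, PNFLX 4 only just, and PNFLX 3 was among them. The difference was -0.32 (SE 0.17, adjusted p 0.462), and -0.34 without PNFLX 4. Pick1, a PDZ and BAR domain protein that takes part in removing AMPA receptors from the membrane, gave -0.79, -0.90, -0.73 and -1.04 in controls and -0.81, -0.996, -0.88 and -1.55 in PNFLX. Its difference of -0.19 (SE 0.19) came from PNFLX 4 alone and was -0.03 without that array. Of the 3 genes of this role all had a difference below 0, with a median of -0.32; without scaling between arrays Pick1 stood at 0.10, under the median of all genes there.

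The SAPAP family, which bridges the Dlg proteins to Shank, had 3 of 4 genes below 0, with a median of -0.21 (-0.17 without PNFLX 4). Dlgap3, known from mice that groom compulsively when it is lost, gave -1.60, -1.55, -1.70 and -1.36 in controls and -1.91, -1.72, -1.71 and -1.99 in PNFLX. The groups did not overlap, but control 3 and PNFLX 3 almost touched. The difference was -0.28 (SE 0.13, adjusted p 0.429), and -0.23 without PNFLX 4.

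Dlgap4 read 1.92, 1.79, 2.03 and 1.64 in controls and 1.16, 1.78, 1.58 and 0.98 in PNFLX. PNFLX 1 and 4 were well below the controls, while PNFLX 2 lay among them. The difference was -0.47 (SE 0.20, unadjusted p 0.0469, adjusted p 0.380), and -0.34 without PNFLX 4. Dlgap1 differed by -0.13 (SE 0.12) with all samples between 2.65 and 2.95. Dlgap2, whose probe is the one most like that of Dlgap4, differed by 0.12 (SE 0.19), the opposite sign; with normexp it was -0.32.

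Among Homer proteins, Homer2 gave -0.75, -0.56, -0.66 and -0.61 in controls and -0.76, -0.82, -0.79 and -1.51 in PNFLX. The groups were separate by the narrowest of margins, since PNFLX 1 lay just under control 1. PNFLX 4 was far below the rest. The difference was -0.33 (SE 0.19, adjusted p 0.504), and -0.15 without PNFLX 4. Homer3, whose groups overlapped, gave -0.23 (SE 0.17), and -0.17 without PNFLX 4.

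The Shank proteins, the large scaffolds that sit deep in the postsynaptic density, showed no common direction. Shank1 lay between -0.21 and -0.02 in controls and between -0.18 and 0.04 in PNFLX 1 to 3; its spot on PNFLX 4 carried an outlier flag and was left out, so the difference of 0.04 (SE 0.13) rests on 3 PNFLX samples. With that spot kept it was -0.23.

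Shank2 gave 0.19, -0.32, -0.31 and -0.45 in controls and -2.04, -0.39, -0.42 and 0.41 in PNFLX. PNFLX 1 was far below all other samples and PNFLX 4 was the highest. The difference of -0.39 (SE 0.46) became -0.73 without PNFLX 4 and 0.09 without PNFLX 1. A further Shank2 probe, in spot row 18, gave -0.38 (SE 0.22) with PNFLX 1 at -4.30, inside the range of the controls, so the low PNFLX 1 value was seen at 1 of its 2 probes.

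Shank3, whose human gene is tied to autism and Phelan-McDermid syndrome, gave 2.84, 2.64, 2.67 and 2.19 in controls and 2.82, 2.24, 2.26 and 3.09 in PNFLX. The groups overlapped fully. The difference was 0.02 (SE 0.24), and -0.15 without PNFLX 4.

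Shank3 and Nrxn3 were each measured by a pair of spots with the same sequence, which shows how much of the variation between arrays comes from the spot. For Nrxn3, a presynaptic neurexin, the probe lies on the plus strand of chromosome 6 at chr6:113908818-113908877 and is shown in capitals because all 60 bases are shared by both spots.
Nrxn3: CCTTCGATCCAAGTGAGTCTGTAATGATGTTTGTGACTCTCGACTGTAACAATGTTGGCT

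The Nrxn3 spot in row 94 gave 3.76, 4.37, 3.76 and 4.08 in controls and 3.76, 3.67, 3.79 and 4.98 in PNFLX. The spot in row 111 gave 3.68, 4.49, 3.74 and 4.15 in controls and 3.65, 3.73, 3.74 and 4.86 in PNFLX. The spots followed each other on every array, with PNFLX 4 highest in both and control 2 next. They differed by a median of 0.08 and at most 0.13, against a range between arrays of 1.30 and 1.22. The variation between samples at this probe was therefore larger than the variation between spots, and it did not follow the groups. The difference was 0.06 (SE 0.31), and -0.25 without PNFLX 4.

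The Shank3 spots differed by a median of 0.06, against ranges between arrays of 0.90 and 1.14. They differed by 0.51 on PNFLX 1, where the row 13 spot read 2.82 and the row 158 spot 2.31. Over all 1488 pairs of spots with the same sequence the median difference was 0.17 and the 95th percentile 1.37. The median differences of the Nrxn3 and Shank3 pairs were below that median. Those 1488 pairs include dim probes that passed the filter and were not matched for brightness.

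**Figure D3:**
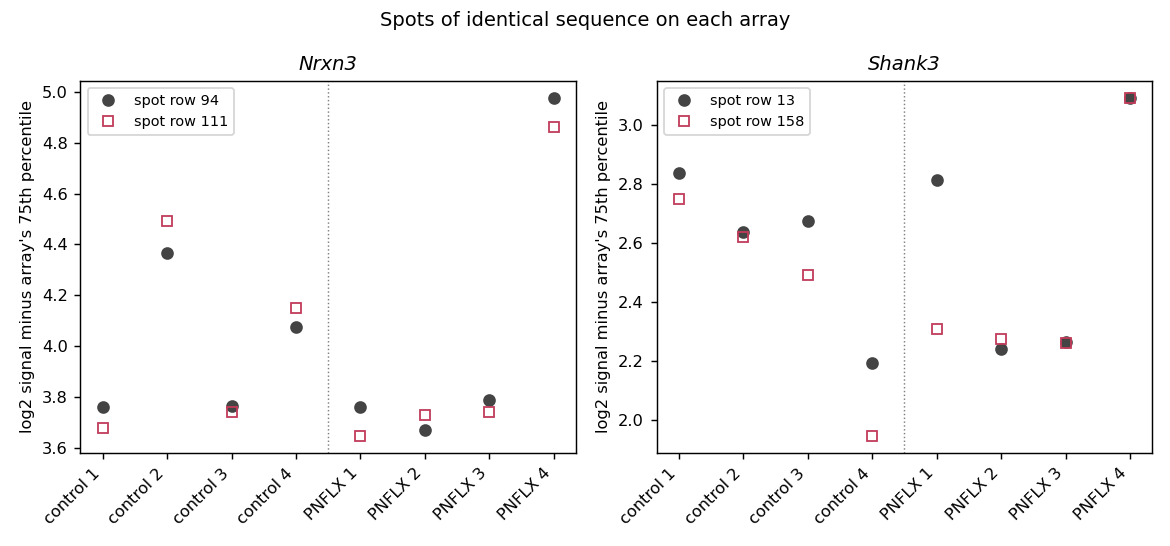
Log2 signal of the spots of identical sequence for Nrxn3 (left) and Shank3 (right) on each array, with controls left of the dotted line and PNFLX right of it. Filled and open symbols are the 2 spots of a gene; both stand highest on PNFLX 4, and the Shank3 spots part on PNFLX 1.

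The Dlg family gave 2 genes below 0 and 2 above, with a median of -0.04 (0.05 without PNFLX 4). Dlg4, which encodes PSD-95, the main scaffold of glutamate synapses, gave 0.28, -0.19, 0.88 and -0.05 in controls and 0.08, 0.33, 0.37 and -0.53 in PNFLX. The controls alone spanned most of the range. The difference was -0.16 (SE 0.29, 95% interval -0.82 to 0.49), and 0.03 without PNFLX 4.

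Dlg3, which encodes SAP102, the family member best known from young synapses, gave -1.97, -2.17, -2.06 and -2.80 in controls and -4.29, -1.85, -1.56 and -2.83 in PNFLX. The value of PNFLX 1 was far below all others. The difference of -0.38 (SE 0.56) turned to 0.17 without that array. Dlg1 (SAP97) differed by 0.08 (SE 0.16) and Dlg2 (PSD-93) by 0.17 (SE 0.16, 0.06 without PNFLX 4); with normexp Dlg1 stood at -0.92 and Dlg2 at -0.08, and the median of all genes at -0.39.

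The postsynaptic adhesion genes Nlgn1 and Nlgn2 had the largest differences in the list, and both rested on control 1. Nlgn1, the neuroligin of excitatory synapses, gave -2.94 in control 1, 0.60, 0.64 and 0.61 in controls 2 to 4, and 0.57, 0.33, 0.43 and 0.87 in PNFLX. Apart from control 1 the groups overlapped closely. The difference of 0.82 (SE 0.76) was -0.06 without control 1. The further Nlgn1 probe, in spot row 106, gave -4.55 in control 1, within the -5.29 to -4.47 of the other controls, and a difference of -0.15.

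Nlgn2, the neuroligin of inhibitory synapses, gave -6.70 in control 1, -2.50, -2.37 and -1.88 in the other controls, and -1.85, -1.76, -2.50 and -2.70 in PNFLX. Control 1 was the array on which this probe was not above background. The difference of 1.16 (SE 0.97) was 0.05 without it. The further Nlgn2 probe gave 0.51, with -2.73 in control 1, which was the highest control there. The low value of control 1 was therefore seen at 1 of 2 probes for each gene, though the further Nlgn1 probe was too dim for a firm check.

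Nlgn3 differed by -0.15 (SE 0.15) and lay between -3.78 and -3.25 in all samples. Nrxn2, a presynaptic partner of the neuroligins, gave 0.43, 0.28, 0.34 and 0.59 in controls and -0.08, 0.23, 0.31 and 0.09 in PNFLX. PNFLX 1, 2 and 4 were below all controls and PNFLX 3 lay between controls 2 and 3. The difference was -0.27 (SE 0.14, adjusted p 0.465), and -0.25 without PNFLX 4.

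Gphn, which encodes gephyrin, the scaffold that anchors glycine and GABA-A receptors, gave -3.76, -3.36, -4.17 and -3.53 in controls and -3.52, -3.58, -3.54 and -4.41 in PNFLX. PNFLX 1 to 3 were almost equal, and PNFLX 4 was the lowest sample. The difference was -0.05 (SE 0.26), and 0.16 without PNFLX 4.

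The 5 other multidomain scaffolds had 4 differences below 0, with a median of -0.15 (-0.16 without PNFLX 4). Ppfia3, a liprin-alpha of presynaptic and postsynaptic scaffolds, gave -3.18, -3.10, -3.18 and -3.13 in controls and -3.50, -3.47, -2.96 and -4.36 in PNFLX. The controls were the tightest of any gene in the list, while the PNFLX samples lay on both sides of them. The difference of -0.43 (SE 0.27) was -0.16 without PNFLX 4. Magi2, which ties neuroligins to receptors, was at -2.20, -2.66, -1.99 and -3.32 in PNFLX and within -2.60 to -2.34 in controls; its difference of -0.05 (SE 0.28) was 0.21 without PNFLX 4.

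Lin7b, a small PDZ protein of the complex with Cask, gave 3.23, 2.99, 2.99 and 2.87 in controls and 2.76, 2.88, 2.89 and 2.55 in PNFLX. The groups overlapped only through control 4. The difference was -0.25 (SE 0.14, adjusted p 0.495), and -0.18 without PNFLX 4. Its relative Lin7a differed by -0.15 (SE 0.19). Cnksr2, a scaffold that joins Ras signalling to the postsynaptic density, gave 1.77 to 1.99 in controls, 1.70, 1.75 and 1.91 in PNFLX 1 to 3 and 3.06 in PNFLX 4; the difference of 0.22 (SE 0.30) was -0.10 without PNFLX 4.

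The 3 regulators of spine actin had differences above 0, and those of Kalrn and Baiap2 depended on single arrays. Kalrn encodes kalirin, a regulator of spine shape. Its chosen probe gave -1.85, -1.78, -1.66 and -1.82 in controls and -2.10, -1.66, -1.69 and -0.77 in PNFLX. PNFLX 4 stood above all other samples. The difference of 0.22 (SE 0.26) was -0.04 without PNFLX 4, and the further probe gave -0.20.

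Baiap2 encodes IRSp53, which bends membrane and recruits actin regulators. Its brighter probe, in spot row 5 near the end of the array, gave 1.84 in control 1, 3.77, 4.15 and 4.38 in the other controls, and 4.66, 4.24 and 4.11 in PNFLX 1 to 3, with the spot on PNFLX 4 left out for its outlier flag. The difference of 0.80 (SE 0.59) was 0.23 without control 1. The further probe, in row 61, gave 0.69, 0.48, 0.52 and 0.55 in controls and 0.62, 0.36, 0.29 and -0.27 in PNFLX, a difference of -0.31 (SE 0.19). The 2 probes of Baiap2 thus differed in sign. Sipa1l1 (SPAR), a GTPase-activating protein for Rap in spines, differed by 0.10 (SE 0.16).

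The 3 immunoglobulin adhesion molecules had small differences. Ncam1, a cell adhesion molecule of neurite growth and synapses, lay between -0.85 and -0.76 in controls and between -1.09 and -0.78 in PNFLX. The difference was -0.14 (SE 0.12), and -0.09 without PNFLX 4. L1cam, an axonal adhesion molecule, differed by -0.13 (SE 0.16), with 0.54 under normexp. Cntn1, a membrane-anchored contactin, differed by 0.05 (SE 0.21).

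PNFLX 4 gave extreme values in both directions. It was the lowest of the arrays for 13 of 33 genes (39.4%, against 28.1% of all genes tested) and the highest for 7 (21.2%, against 21.9%). Set against the mean of the other 7 arrays, Ppfia3 (-1.14), Magi2 (-0.92), Homer2 (-0.80), Dlg4 (-0.77) and Gphn (-0.77) stood lowest there. Cnksr2 (1.22), Nrxn3 (1.09), Kalrn (1.03), Shank2 (0.95) and Nlgn1 (0.84) stood highest.

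The medians of these deviations differed by kind of probe, and single genes did not all follow that order. The kinds were read only from the genome span of a probe and its stop codons. Cnksr2 and Nrxn3, which stood highest, have contiguous probes with an open reading frame. Of the 33 chosen probes 11 are split on the genome, as a probe across an exon junction is, and 22 are contiguous. Whether each split lies at an exon junction was not checked. On PNFLX 4 the split probes had a median deviation of -0.48, with 9 of 11 below 0. Contiguous probes with at least 1 open reading frame had a median of -0.08, with 11 of 18 below 0. Both contiguous probes with a stop codon in all 3 forward frames, Kalrn and L1cam, were above 0, with a median of 0.65. Shank1 and Baiap2 had no value on this array. Measured instead from each gene's mean over all 8 arrays, the medians were -0.42, -0.07 and 0.57 for the listed genes. By that measure the order was the same among genes outside the list, with -0.21 over 2156 split probes, -0.07 over 6235 contiguous open probes and 0.22 over 918 with stops in all frames.

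**Figure D4:**
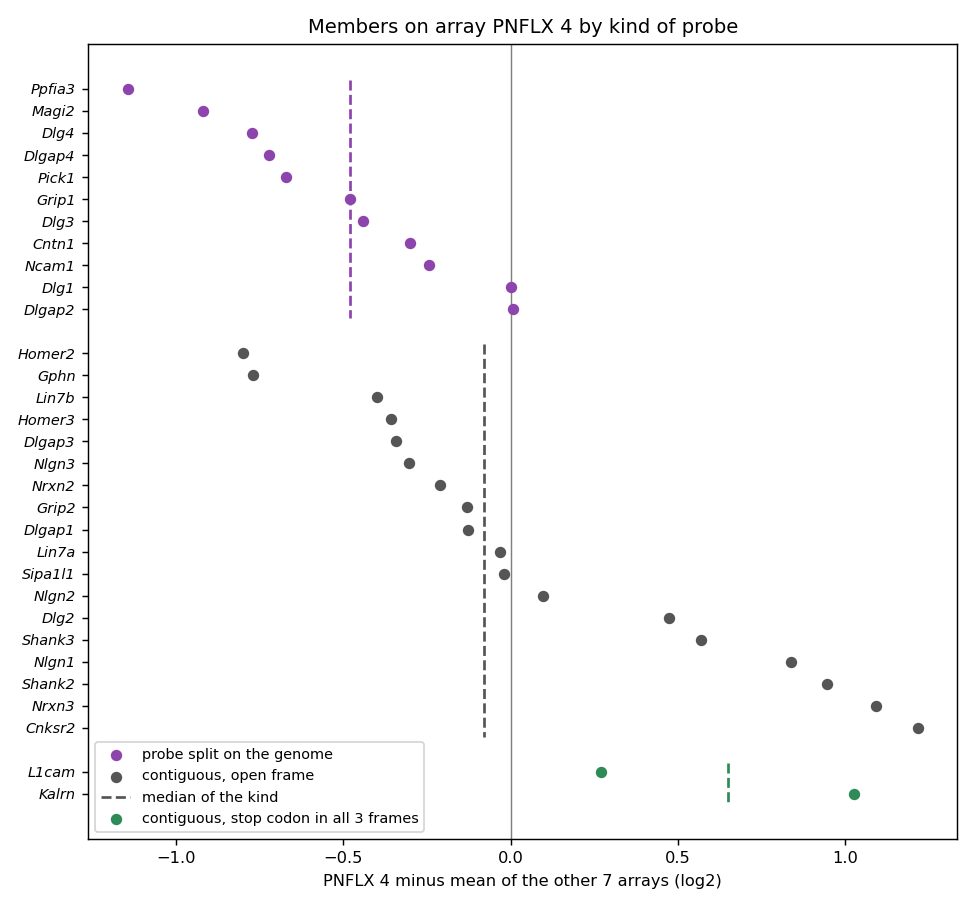
Log2 signal of each gene on PNFLX 4 minus its mean over the other 7 arrays, grouped by whether the probe is split on the genome, contiguous with an open reading frame, or contiguous with a stop codon in all 3 forward frames; dashed lines are medians. The medians are -0.48, -0.08 and 0.65; no split probe lies clearly above 0, while Cnksr2, Nrxn3 and Kalrn lie furthest to the right.

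For genes with probes at separate positions the downstream signal could be set against the upstream one on each array. The label protocol primes cDNA from the poly(A) tail, so on the same transcript an upstream probe needs longer cDNA. For Kalrn the downstream minus upstream log2 value was 0.22 to 0.75 on 7 arrays and 2.18 on PNFLX 4. For Shank2 it was 2.26 to 4.58 on the others and 5.47 on PNFLX 4. The Kalrn probes lie 196053 bases apart on the genome and the Shank2 probes 2982. In both genes the probes carry different transcript records, so the value may also hold a difference between transcript forms, which was not tested. PNFLX 4 was not highest for Nlgn1, at 5.32 with up to 5.93 on another array, or for Nlgn2, at 0.86 with up to 1.24, and Baiap2 had no value there. Over 288 other genes with such probes the median deviation from each gene's mean was between -0.10 and 0.02 on the other 7 arrays and 0.32 on PNFLX 4, which held the highest value for 35.4% of these genes. Values of RNA quality were not used here, and the part of RNA or cDNA length in the PNFLX 4 values was not tested.

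Control 1 had the lowest values of this measure for 3 genes. The downstream minus upstream value was 1.14 on control 1 for Baiap2 against 3.29 to 4.04 on the other arrays with a value, 1.61 for Nlgn1 against 5.03 to 5.93, and -3.97 for Nlgn2 against -0.83 to 1.24. Over the 288 other genes control 1 was at -0.03, within the range of the remaining arrays. The low control 1 values of these 3 genes thus had no counterpart in the median of the other genes.

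**Figure D5:**
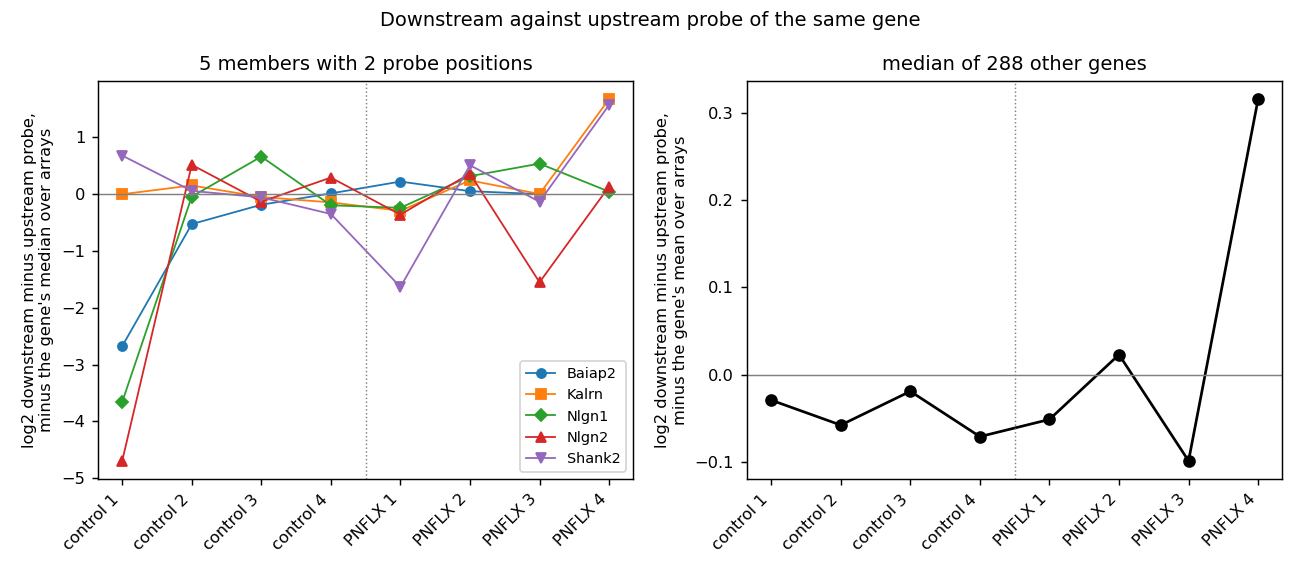
Log2 signal of the downstream probe minus that of the upstream probe on each array, for 5 listed genes (left, minus the gene's median over arrays) and as the median of 288 other genes (right, minus each gene's mean). Kalrn and Shank2 are highest on PNFLX 4, as is the median of the other genes at 0.32, while Baiap2, Nlgn1 and Nlgn2 are lowest on control 1.

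Genes that work beside the listed ones were described from 5 companion lists, and limma called 0 genes in any of them. At an unadjusted p under 0.05 there were 3 of 36 other scaffolds, 8 of 38 actin regulators and 6 of 52 adhesion genes. There were also 1 of 24 glutamate receptor clients and 3 of 21 genes linked to gephyrin, beside the 12.8% of all genes. Of other postsynaptic scaffolds, 36 of 51 were measured, 10 above 0 and 26 below, with a median of -0.11 (22 below and -0.07 without PNFLX 4). The smallest p values there belonged to 3 liprin-alpha genes and synaptopodin, an actin-binding protein of the spine apparatus. Ppfia4 differed by -0.99 (SE 0.37, adjusted p 0.316) without overlap of the groups, Ppfia1 by -0.91, Ppfia2 by -0.41 and Synpo by -0.80. With Ppfia3 at -0.43, all 4 liprin-alpha genes had differences below 0, and none passed.

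Of the regulators of spine actin, 38 of 45 were measured, 17 above 0 and 21 below, with a median of -0.02. Actn2, an actin crosslinker that binds NMDA receptors, differed by -0.99 (SE 0.26, adjusted p 0.168) without overlap, and by -0.79 without PNFLX 4. Rasgrp1 also had separate groups, at -0.52, while Pak2 stood at 0.74 and Tiam1, whose spot lies in row 3, at 1.35. After row and column medians were subtracted Rasgrp1 was -0.25, Tiam1 0.68, Pak2 0.77 and Actn2 -0.80.

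Of other adhesion genes 52 of 70 were measured, 23 above 0 and 29 below, with a median of -0.06. Nxph1, a secreted ligand of alpha-neurexins, differed by 0.65 (SE 0.13, adjusted p 0.0860), with every PNFLX sample above every control. The value was 0.67 without PNFLX 4 and 0.35 after spot row and column medians were subtracted. Its relative Nxph3 differed by 0.61, also without overlap. Icam5 (telencephalin), a dendritic adhesion molecule, differed by -0.60 and Ctnna2 (alpha-N-catenin) by -0.54, both with overlap.

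Among the receptors that these scaffolds hold, 24 of 25 glutamate receptor genes and related clients were measured, 8 above 0 and 16 below, with a median of -0.12. Itpr1 differed by 0.29 without overlap and Gria3, an AMPA receptor subunit, by -0.86 with overlap. Grm5 (-0.98, spot row 192) and Grin2d (1.30, spot row 3) lie at the ends of the array, and after row and column medians were subtracted Grm5 turned to 0.54 and Grin2d was 0.73. A further list held GABA-A and glycine receptor subunits and other genes linked to gephyrin, not all of them receptors. Of these 21 of 25 were measured, 13 above 0 and 8 below, with a median of 0.06. Gabra4 differed by -0.80 (SE 0.25, adjusted p 0.230) and Glrb, the glycine receptor subunit that binds gephyrin, by 0.72, both without overlap. Gabra5 (spot row 191) stood at -1.39, and at -0.47 after that subtraction.

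Markers of tissue next to the hippocampus varied between single samples. The summed level of 7 choroid plexus and ependyma markers was 5.46 in control 4 and 2.07 to 2.80 in all other samples. That of 13 meninges and fibroblast markers was 6.71 in PNFLX 1 and 5.12 to 5.76 in all others. PNFLX 1 was also the sample with the low values of Dlg3 and Shank2, and the part of this tissue in those values was not tested.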

How the data were processed

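Total RNA of 8 hippocampus samples was hybridised, as Cy3-labelled cRNA, to custom Agilent arrays, per the labels' protocols. The deposited intensity values were made with Agilent Feature Extraction 10.5.1.1, which applied spatial and multiplicative detrending, per the file headers, and were not scaled between arrays. The authors' deposited log2 table matched, within 0.00241, the same scaled signal as used here after each probe was centred on its median over arrays, and served as an alternative. The protocol gives day 21 as the end of dosing, and that was taken. End days in the descriptions of single samples run from 21 to 24 in controls and from 25 to 28 in PNFLX. Were those days real, their effect and that of the group could not be told apart.

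Values used here were log2 processed signal minus the 75th percentile over non-control probes; 521 spots with an outlier flag were dropped. A probe had to be well above background on 4 or more of 8 arrays, and the brightest probe of a gene was used. Names came from RefSeq (GRCr8, names only), which matched 14323 of 15207 probes; probe positions and sequences are those of the files, on rn4. The test was limma's (3.58.1, under R 4.3.3), adjusted by Benjamini-Hochberg with a threshold of 0.05. The genes, the 5 companion lists and the 10 marker lists were chosen with earlier results of these data known. All 33 genes are named whatever their values, and up to 4 genes of smallest p in each companion list; 1 of these is not reported here. A summed level is log2 of the sum of a list's scaled linear signals.

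Simulated data were made for the comparison of PNFLX with control (9423 genes, 200 changed). There 10% of genes changed 1.5-fold were called, 52% at 2-fold and 78% at 4-fold, with 6 false calls. The simulated noise was normal and independent between genes, without array-wide effects or gradients, so these shares may not hold for the real arrays. Alternatives were other background correction, scaling, filters, probe choice, spot position, array weights, a replicate block and leaving out each array. The number of arrays limits the precision.

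The summed signals of the other marker lists, as log2 ranges in controls and in PNFLX, were 5.59 to 6.40 and 6.12 to 6.32 for hippocampal fields, 6.26 to 6.42 and 5.78 to 6.33 for astrocytes, 6.50 to 6.87 and 6.34 to 6.60 for oligodendrocytes, 4.95 to 5.22 and 4.96 to 5.29 for microglia, 4.35 to 4.52 and 4.32 to 4.55 for vessels, 0.10 to 0.29 and -0.07 to 1.25 for blood, and 2.79 to 3.33 and 2.88 to 3.81 for thalamus.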

Additional observations from a re-analysis of the deposited data

Results flagged for a closer look

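In 8 of 82 groups of 4 values (9.76%), 1 sample lay apart from the other 3 of its group by Dixon's criterion at 95%. Chance gives about 1 in 20 when groups are independent. These groups share the same arrays and are not independent, so the share is a description and no test. The groups were 78 of single probes with all 4 values and 4 of medians over genes, and the pair of Nrxn3 spots, which share a sequence, counts as 2 of the 8. Of these, 6 were on PNFLX 4. There Cnksr2 read 3.06, with the other 3 PNFLX samples at 1.70 to 1.91. Nrxn3 read 4.98 in its first spot, against 3.67 to 3.79, and 4.86 in its second spot, against 3.65 to 3.74. The second Shank3 spot read 3.09, against 2.26 to 2.31. Low values on PNFLX 4 were -4.41 for Gphn, against -3.58 to -3.52, and -1.51 for Homer2, against -0.82 to -0.76.

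The other 2 were on control 1, where Nlgn1 read -2.94, against 0.60 to 0.64 in the other controls, and Nlgn2 read -6.70, against -2.50 to -1.88.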

How the results depend on the processing

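The count of listed genes called was 0 in every alternative except array weights, where it was 1: Grip1, at -0.49 with an adjusted p of 0.0413. Weights ranged from 0.26 for PNFLX 4 to 3.92 for PNFLX 2. The number of all genes called, 48, was 27 with normexp, 108 without scaling between arrays, 26 without a filter, 25 with probes above background on all 8 arrays, 31 after row and column medians were subtracted and 358 with array weights. Without the first and last 5 spot rows it was 0 by limma, with 1092 of 9083 genes at an unadjusted p under 0.05, 2 of them listed. Leaving out 1 array gave 14 to 60. The lower counts came without PNFLX 2 (14), control 3 (15), control 4 (17), PNFLX 4 (20), PNFLX 1 (21) and control 1 (28). With the replicate block it was 5, and no listed gene changed its call or sign. Deviations of same-numbered samples correlated at 0.00 to 0.09. The PNFLX sample of highest correlation was the same-numbered one for replicates 2 and 3, and another for replicates 1 and 4. The labels do not say whether same-numbered samples were paired, and low correlations do not settle it.

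The listed genes below 0 numbered 7 without scaling and 20 to 23 without 1 array; their median was 0.17 without scaling and -0.20 to -0.10 without 1 array. With the 29 genes named by the listed symbol, chosen after seeing the data, 18 were below 0 and the median was -0.13. No gene whose sign turned had passed the test in either setting. Without scaling, where the median of all genes was 0.26, signs turned for Dlg4 (0.13), Dlgap1 (0.17), Dlgap3 (0.012), Homer3 (0.062), Nlgn3 (0.14), Nrxn2 (0.027), Pick1 (0.10), Gphn (0.24), Magi2 (0.25), Ncam1 (0.16), L1cam (0.17), Lin7a (0.14) and Lin7b (0.046). With normexp they turned for Dlg1 (-0.92), Dlg2 (-0.085), Dlg4 (0.13), Dlgap1 (0.092), Dlgap2 (-0.32), Nlgn2 (-0.87), Kalrn (-0.17), L1cam (0.54) and Lin7b (0.085). With array weights they turned for Dlg3 (0.12), Shank1 (-0.029), Shank3 (-0.20), Nrxn3 (-0.21), Gphn (0.16) and Cnksr2 (-0.060). After row and column medians were subtracted they turned for Dlg1 (-0.021), Shank1 (-0.21), Nlgn3 (0.079), Nrxn3 (-0.013), Gphn (0.11) and Ncam1 (0.0076). Shank1 was -0.23 with its outlier spot kept and in the authors' table, and Magi2 0.0031 with quantile normalization. Baiap2 was -0.33 as a mean of probes and -0.31 without end rows. The further probes, added after seeing the data, gave -0.31 for Baiap2, -0.15 for Nlgn1, -0.021 for Nrxn3 and -0.20 for Kalrn. The cause was not tested.

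Leaving out 1 array turned signs within these ranges: Dlg1 -0.0017 to 0.19, Dlg3 -0.74 to 0.17, Dlg4 -0.30 to 0.052, Dlgap2 -0.0057 to 0.22, Shank1 -0.025 to 0.083, Shank2 -0.73 to 0.092, Shank3 -0.15 to 0.14, Nlgn1 -0.064 to 1.13, Nrxn3 -0.25 to 0.18, Gphn -0.21 to 0.16, Cnksr2 -0.10 to 0.36, Magi2 -0.24 to 0.21, Sipa1l1 -0.011 to 0.16, Kalrn -0.042 to 0.40 and Cntn1 -0.12 to 0.14.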
